A study of Gossypium hirsutum with 6 samples.

Results

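Transcripts of the upland cotton stem apex that were lower in the dwarf mutant than in both other lines, while those lines stayed close to each other, are described here. Messenger RNA was sequenced from 3 lines of Gossypium hirsutum. Ari971 (A9) was the wild type, Ari3697 (A3) a tall-culm mutant and Ari1327 (A1) a dwarf mutant. Both mutants came from Ari971 by gamma-ray irradiation, and the lesions that they carry are not given in the sources used here. Seedlings of all 3 lines were raised in greenhouse pots without further treatment, and stem apexes were taken once the fifth true leaf had formed. There was 1 mRNA library per line, so a difference between lines has no replicate check and no test was made. The labels also speak of RNA of the lines being pooled, although title and genotype give each library to a single line, and the latter was followed here.

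The values were RPKM, the reads of a transcript scaled by its length and by the mapped reads of the library. Members were chosen by their measured values in all 3 libraries. A member had a mean of at least 10 RPKM over the libraries, an A1 value of at most 0.5 times that of A9 and at most 0.5 times that of A3, and an A3/A9 ratio between 0.714 and 1.4. The rule was met by 25 transcripts of the 156846 listed, which is 0.166% of the 15098 transcripts with a mean of at least 10 RPKM. The low A1 values of these transcripts are therefore a description, and nothing is concluded from them about the lines as such.

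The stem apex holds the shoot meristem, the young leaves and the uppermost internodes, whose cells divide and elongate to set the height of a plant. Upland cotton is an allotetraploid, so most genes have homoeologous copies from the At and Dt subgenomes that differ at few bases. The reads were assembled without a genome, and the assembler sorts transcripts that share sequence into a component, here the transcript name without its last number. Transcripts of a component can be splice forms, alleles, homoeologous or closely related genes, and their reads are hard to assign to a single one of them. The members carry assembly names only and no gene name, so the labelled tissue was not checked against markers and no role is given to any member. In RNA from a whole apex, fewer cells of a type and less RNA per cell cannot be told apart.

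The A1/A9 ratios of the 25 transcripts fell into a group of very low values and a larger group of values nearer to the limit. In 8 of them, from 7 components, A1 had at most 12.3% of the A9 value, an at least 8-fold difference. None lay between that and 31.9%, and the other 17 had between 31.9% and 49.9%. The gap depends on the limits set for A3/A9, since other transcripts low in A1 against both lines lay within it. Outside those limits, comp15455_c0_seq1, comp14572_c0_seq1 and comp29535_c1_seq2 had 14.5%, 14.7% and 31.6% of A9 in A1. Just outside, at an A3/A9 ratio of 1.405 and 1.42, comp43448_c0_seq7 and comp43448_c0_seq9 had 16.9% and 23.7%. Both met the rule with upper-quartile scaling or with 1 added to every RPKM. Their component comp43448_c0 met it as a sum without these changes, at 23.9% of A9 in A1. The split at 8-fold was chosen after the values were seen. The median of the 25 was 0.387 for A1/A9, which is 2.58-fold lower or -1.37 on the log2 scale, beside a median log2 ratio of -0.02 over all 15098 transcripts. Their median values were 6.84 RPKM in A1, 20.1 RPKM in A3 and 20.7 RPKM in A9.

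**Figure D1:**
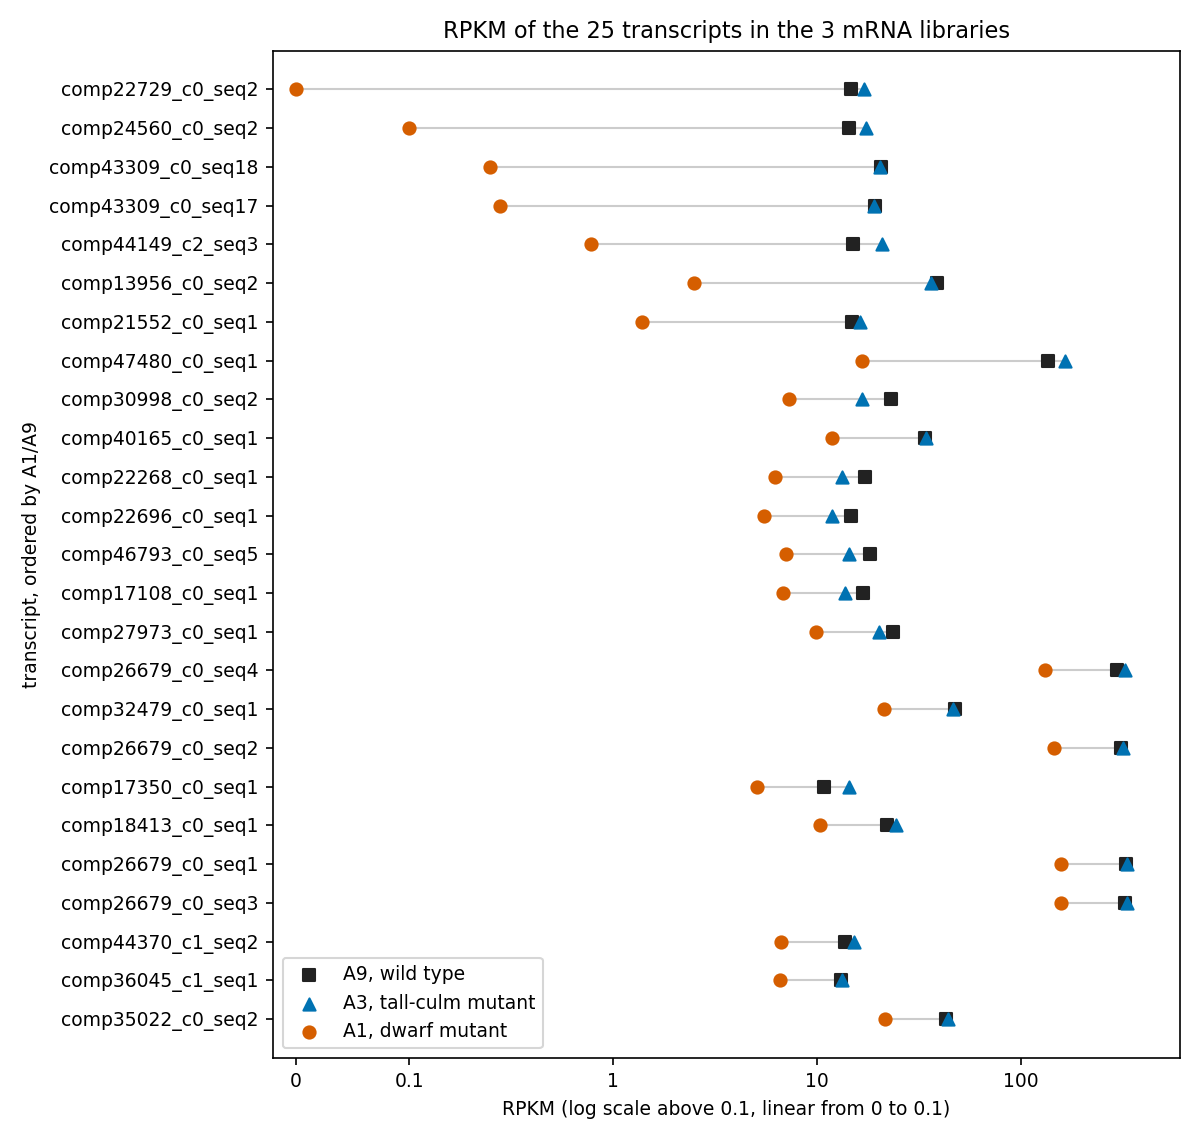
RPKM (horizontal axis, logarithmic above 0.1 and linear below) of each of the 25 transcripts (vertical axis, ordered by A1/A9) in A1 (circles), A3 (triangles) and A9 (squares), with 1 library per line. The 8 uppermost transcripts had at most 12.3% of the A9 value in A1, and the 17 below them had 31.9% to 49.9%.

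Most members were expressed at a modest level. The mean over the libraries was under 20 RPKM for 16 of them, from 20 to 50 RPKM for 4 and over 100 RPKM for 5, with a median of 13.7 RPKM. The median over all transcripts of at least 10 RPKM was 17.7 RPKM. In A1, 7 members were under 3 RPKM and 5 of these were under 1 RPKM. A3 was above A9 in 15 members and below it in 10, and the 2 lines lay within 10% of each other in 11.

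Each ratio of the rule picked out few transcripts at this level of expression. An A1/A9 ratio of at most 0.5 was found for 211 transcripts, or 1.4%, and an A1/A3 ratio of at most 0.5 for 61, or 0.404%. Both held for 34, of which 25 lay within the limits set for A3/A9, 5 had a higher A3/A9 ratio and 4 a lower one. Of the 211 transcripts, 66 were also at most 0.5 of A9 in A3. Within the limits for A3/A9 there were 12533 transcripts, 83.0% of the 15098. Among these, 24 were low in A1 against A9 alone and 9 against A3 alone.

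**Figure D2:**
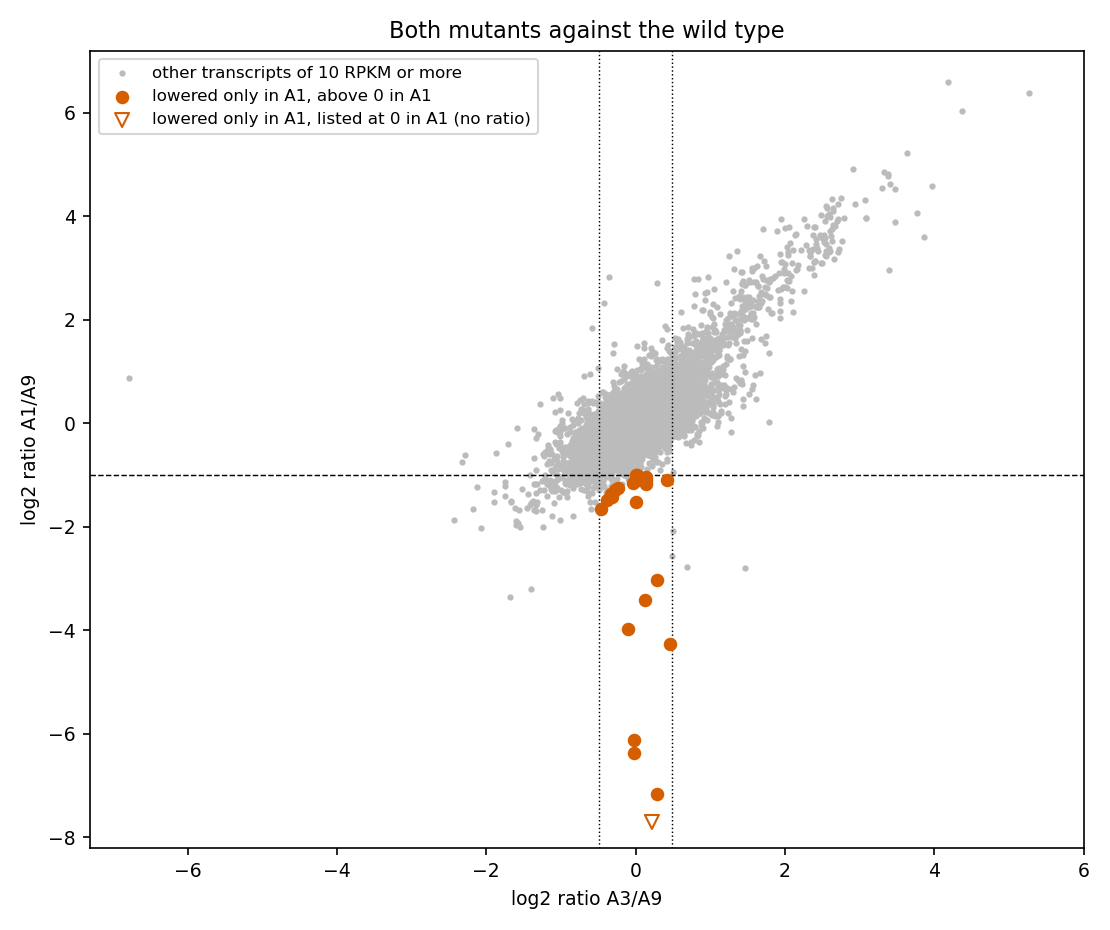
Log2 ratio of A1 over A9 (vertical axis) against log2 ratio of A3 over A9 (horizontal axis) for 15090 transcripts of at least 10 RPKM (grey), with the transcripts lowered only in A1 in orange and the one listed at 0 in A1 as an open triangle at an arbitrary height. Dashed and dotted lines mark the limits on A1/A9 and A3/A9, and 7 other transcripts with a value of 0 are not drawn; the orange points lie between -1.004 and -7.16, and those nearest to the limit lie beside grey points that are also low in A1.

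Among the components with a member, a single one was without any signal in A1. The transcript comp22729_c0_seq2 was listed at 0 in A1, at 17.0 RPKM in A3 and at 14.6 RPKM in A9. The remaining transcripts of the component, comp22729_c0_seq1 and comp22729_c0_seq3, were under the minimum mean and were not members. The first was listed at 0 in A1, at 13.3 RPKM in A3 and at 10.9 RPKM in A9. The second was listed at 0 in A1, at 13.8 RPKM in A3 and at 11.95 RPKM in A9. All 3 transcripts thus had the same order of the lines, and the component summed to 0 in A1, 44.1 RPKM in A3 and 37.5 RPKM in A9. No fold is given against a value listed at 0. Outside the limits on A3/A9, 2 transcripts that were not members were also listed at 0 in A1. These were comp15312_c0_seq1, with 27.07 RPKM in A3 and 17.25 RPKM in A9, and comp26016_c0_seq3, with 12.02 and 20.08 RPKM.

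Very little signal was left for 4 more members. In comp24560_c0_seq2 the value was 0.10 RPKM in A1, 17.4 RPKM in A3 and 14.3 RPKM in A9, so A1 had 0.698% of A9. In comp44149_c2_seq3 it was 0.78 RPKM in A1, 20.8 RPKM in A3 and 15.0 RPKM in A9, so A1 had 5.19% of A9. The other 2 were both in comp43309_c0, neighbours by assembly number only, and they can share reads. There comp43309_c0_seq18 had 0.25 RPKM in A1, 20.3 RPKM in A3 and 20.65 RPKM in A9, which is 1.21% of A9 in A1. Its neighbour comp43309_c0_seq17 had 0.28 RPKM in A1, 18.97 RPKM in A3 and 19.3 RPKM in A9, which is 1.45%. In A3 and A9 these 2 transcripts differed by less than 2% between the lines. At the depth inferred from the spacing of low values, the A1 signal would be about 1.39 reads per 1000 bases for comp24560_c0_seq2. It would be 3.46 reads per 1000 bases for comp43309_c0_seq18, 3.88 for comp43309_c0_seq17 and 10.8 for comp44149_c2_seq3. Whether such a step is a read or a read pair is not settled, and ratios that rest on so few reads are imprecise in size.

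The 3 remaining transcripts of this group kept a measurable signal in A1. The transcript comp47480_c0_seq1 was by far the most abundant of the 8, with 16.6 RPKM in A1, 164 RPKM in A3 and 135 RPKM in A9. It was 8.15-fold lower in A1 than in A9 and 9.91-fold lower than in A3, and it was alone in its component. The transcript comp21552_c0_seq1, also alone, had 1.39 RPKM in A1, 16.2 RPKM in A3 and 14.8 RPKM in A9, and was 10.7-fold lower in A1 than in A9. Neither has a second transcript in its component, and reads shared with other components were not tested. With 1 added to every RPKM they were 7.75-fold and 6.62-fold lower in A1 than in A9, and 6 of the 8 were still at least 8-fold lower than in both lines. The transcript comp13956_c0_seq2 had 2.48 RPKM in A1, 36.4 RPKM in A3 and 38.8 RPKM in A9, and was 15.7-fold lower in A1 than in A9. Its only companion, comp13956_c0_seq1, had 11.2 RPKM in A1, 18.0 RPKM in A3 and 19.6 RPKM in A9, or 57.2% of A9 in A1. The less affected transcript held the smaller part of the component in A9 and the larger part in A1, since comp13956_c0_seq2 made up 66.5% of the component in A9 and 18.1% in A1.

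Among the 17 transcripts with a smaller difference, the component comp26679_c0 stood out by its level. It holds 4 assembled transcripts and all 4 were members. The transcript comp26679_c0_seq1 had 156 RPKM in A1, 330 RPKM in A3 and 328 RPKM in A9, and comp26679_c0_seq3 had 156, 330 and 324 RPKM in the same order. The transcript comp26679_c0_seq2 had 144 RPKM in A1, 316 RPKM in A3 and 310 RPKM in A9. The lowest A1 value was that of comp26679_c0_seq4, with 131 RPKM in A1, 324 RPKM in A3 and 294 RPKM in A9. The 4 A1/A9 ratios lay between 0.446 and 0.482, and each transcript held about as large a part of the component in A1 as in A9. The component summed to 588 RPKM in A1, 1300.3 RPKM in A3 and 1256 RPKM in A9, and was 2.13-fold lower in A1 than in A9. Since the 4 transcripts can share reads, they are better read as a single measurement than as 4.

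Another 7 of the 17 transcripts were alone in their component, and reads shared with other components were not tested. The largest difference among them was that of comp40165_c0_seq1, with 11.8 RPKM in A1, 34.1 RPKM in A3 and 33.9 RPKM in A9, 2.88-fold lower in A1 than in A9. Next came comp22268_c0_seq1 with 6.22 RPKM in A1, 13.2 RPKM in A3 and 17.3 RPKM in A9, and comp22696_c0_seq1 with 5.50, 11.8 and 14.7 RPKM. In both of these A3 lay below A9, at 0.763 and 0.802 of it. The most abundant was comp32479_c0_seq1, with 21.4 RPKM in A1, 46.1 RPKM in A3 and 47.5 RPKM in A9. The transcript comp18413_c0_seq1 had 10.4 RPKM in A1, 24.3 RPKM in A3 and 22.1 RPKM in A9. In these 2 transcripts A3 and A9 were close, and A1 was 2.22-fold and 2.13-fold lower than A9. The last 2, comp17108_c0_seq1 and comp27973_c0_seq1, passed the limit on A1/A3 by little, at ratios of 0.497 and 0.493. The first had 6.84 RPKM in A1, 13.8 RPKM in A3 and 16.7 RPKM in A9, and the second had 9.89, 20.1 and 23.6 RPKM.

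Whether a low value belonged to a transcript or to its whole component was examined with RPKM summed per component. Of the 25 members, 9 were alone in their component, or 36%, beside 34.8% of all transcripts of at least 10 RPKM. The remaining 16 members lay in 12 components together with 44 transcripts that were not members. The component sum met the ratios of the rule for 17 of the 25 members. Leaving out those alone in a component, for which the sum is the transcript itself, it did so for 8 of 16 members, in 5 of 12 components. These 5 were comp22729_c0, comp24560_c0, comp13956_c0, comp26679_c0 and comp44370_c1. The sum of comp26679_c0 could not have failed, since all 4 of its transcripts were members, and it supplies 4 of the 8.

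**Figure D3:**
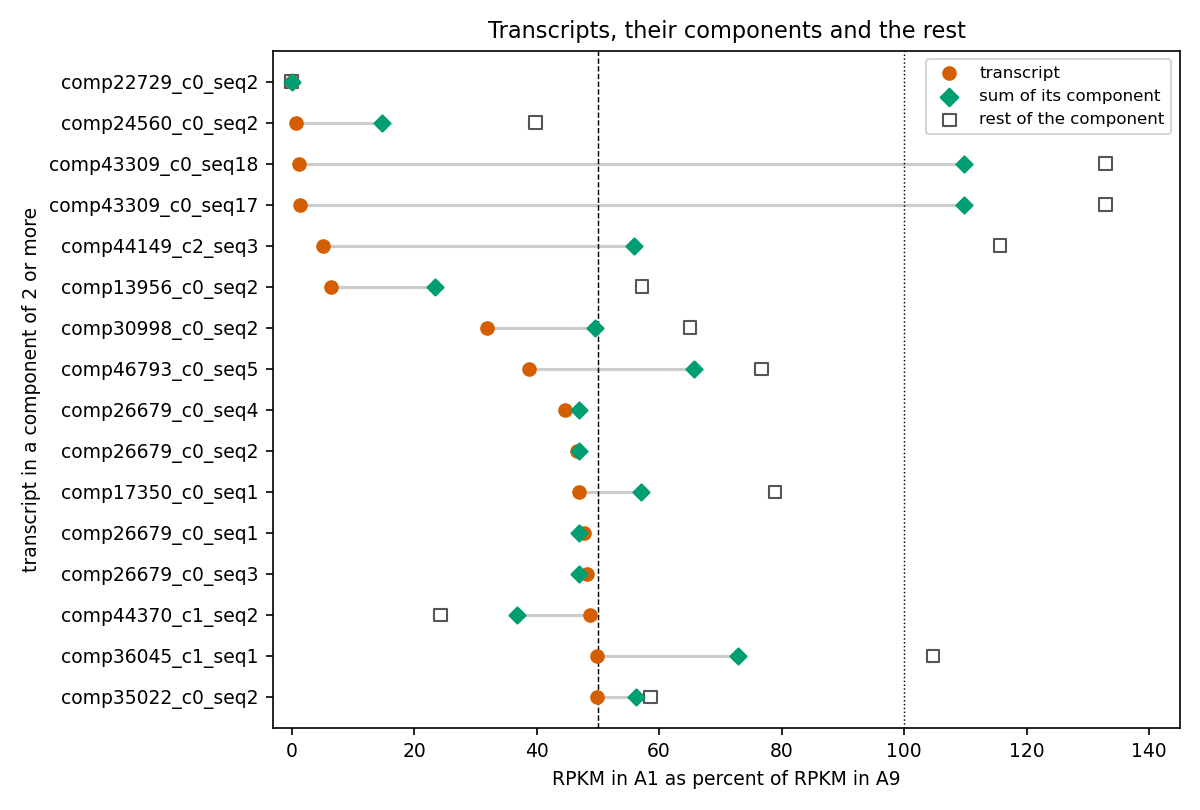
RPKM in A1 as a percentage of RPKM in A9 (horizontal axis) for the 16 members in components of 2 or more transcripts (vertical axis), shown for the transcript (circle), the sum of its component (diamond) and the other transcripts of the component (open square; none for comp26679_c0). The dashed line marks 50% and the dotted line 100%; the rest of comp43309_c0 lies at 133%, whereas its 2 members lie at 1.21% and 1.45%.

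The other transcripts of these components were not used by the rule, though they come from the same libraries and may share reads with the members. They could be summed for 11 components, all but comp26679_c0. The rest was at most 0.5 of A9 in A1 in 3 of the 11 components, beside 1.08% for 9806 other transcripts of at least 10 RPKM. Each of the 9806 was taken out of its component singly, so a component could enter more than once. The 11 are components and the 9806 are transcripts, which makes the shares only roughly comparable. The rest was within 1.4-fold of A9 in 5 of the 11 and at least 2-fold higher in none, beside 78.1% and 4.26% of the 9806. Of those 5, comp17350_c0 and comp36045_c1 had a rest in A1 at 0.564 and 0.696 of A3. In comp46793_c0, comp43309_c0 and comp44149_c2 the rest in A1 was at 0.879, 0.938 and 1.07 of A3. The median log2 ratio of A1 over A9 for the rest was -0.62 for the 11 components and -0.00 for the 9806. The 3 components with a low rest were comp22729_c0, listed at 0 in A1, comp44370_c1 and comp24560_c0.

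In comp44370_c1 the rest was lower in A1 than the member was. The member comp44370_c1_seq2 had 6.69 RPKM in A1, 15.1 RPKM in A3 and 13.7 RPKM in A9. Its companion comp44370_c1_seq1 had 3.19 RPKM in A1, 7.61 RPKM in A3 and 13.1 RPKM in A9, so that it was also lower in A3 than in A9. In comp24560_c0 the other transcripts went apart. The transcript comp24560_c0_seq3 was listed at 0 in A1 and had 6.26 RPKM in A3 and 6.64 RPKM in A9. The transcript comp24560_c0_seq1 had 3.20 RPKM in A1, 2.95 RPKM in A3 and 1.4 RPKM in A9, and was thus the only one of the component that was higher in A1 than in A9. The component as a whole summed to 3.30 RPKM in A1, 26.6 RPKM in A3 and 22.4 RPKM in A9.

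In comp43309_c0 the members were exceptions within a component whose sum in A1 was above that of A9 and 0.818 of that of A3. It holds 21 transcripts and summed to 249 RPKM in A1, 304 RPKM in A3 and 227 RPKM in A9. Of the 19 transcripts that were not members, 13 were higher in A1 than in A9, and their A1/A9 ratios ranged from 0.0773 to 1.65. Only 3 of the 19 were at most 0.5 of A9, all with a low mean. These were comp43309_c0_seq1 with 0.34 RPKM in A1, 4.26 RPKM in A3 and 4.40 RPKM in A9, comp43309_c0_seq15 and comp43309_c0_seq21. The most abundant transcript of the component, comp43309_c0_seq14, had 81.0 RPKM in A1, 84.4 RPKM in A3 and 63.6 RPKM in A9. The 2 members together with the rest thus gave a component that was 1.10 times as high in A1 as in A9, and the direction of the difference turned when the component was summed. The members held 8.51% and 9.10% of the component in A9 and 0.112% and 0.1004% in A1.

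In comp44149_c2 the low value was likewise that of the member. The sum of its 3 other transcripts was 14.8 RPKM in A1, 13.7 RPKM in A3 and 12.8 RPKM in A9. Each of the 3 had an A1/A9 ratio between 0.999 and 1.49. The member held 54.1% of the component in A9 and 5.02% in A1. The component sum in A1 was 0.559 of A9 and 0.450 of A3, so it still met the limit against A3.

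In comp46793_c0 the member was set apart from 9 transcripts of very similar level. The transcript comp46793_c0_seq5 had 7 RPKM in A1, 14.4 RPKM in A3 and 18.1 RPKM in A9. The other 9 transcripts had A1/A9 ratios from 0.732 to 0.802, and their sum was 34.4 RPKM in A1, 39.1 RPKM in A3 and 44.8 RPKM in A9. All 10 were lowest in A1 and highest in A9, and only the member passed the thresholds.

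**Figure D4:**
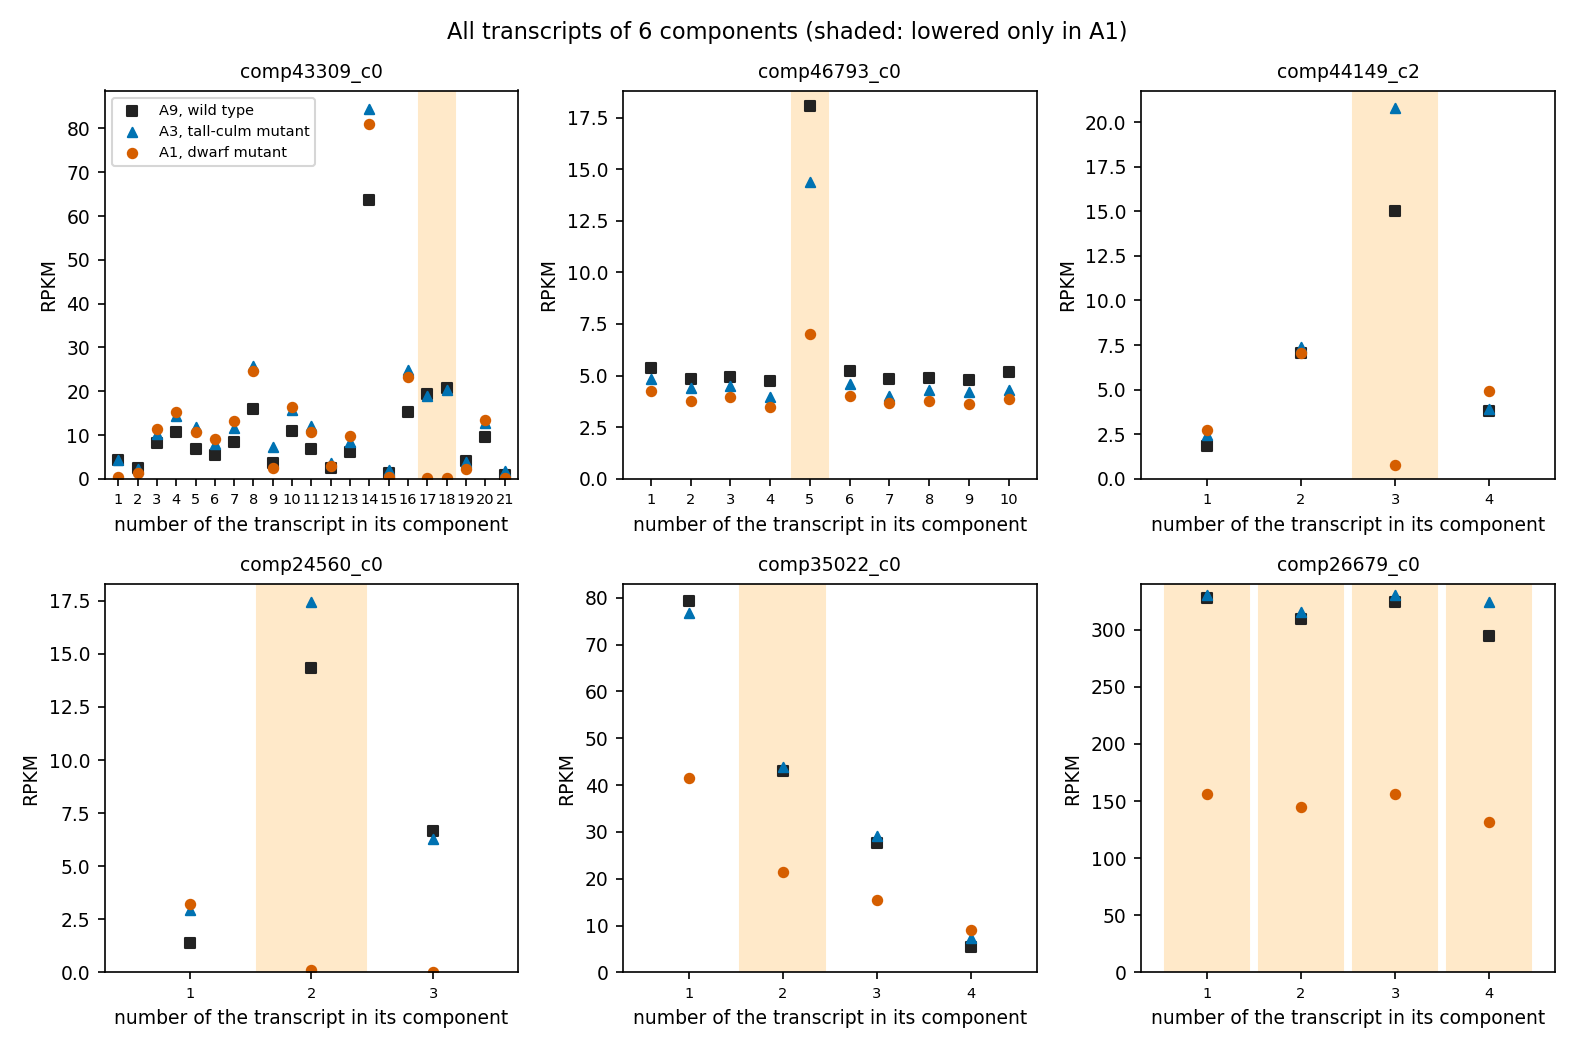
RPKM (vertical axis, linear, from 0) of every transcript (horizontal axis, by its number) in 6 components, in A1 (circles), A3 (triangles) and A9 (squares), with the members shaded. In comp43309_c0 the 2 shaded transcripts are near 0 in A1 among transcripts that are mostly higher in A1 than in A9, whereas in comp26679_c0 all 4 transcripts lie between 131 and 156 RPKM in A1 and between 294 and 330 RPKM in the other lines.

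The components of the last 4 members lay between these cases. In comp30998_c0 the member comp30998_c0_seq2 had 7.31 RPKM in A1, 16.7 RPKM in A3 and 22.9 RPKM in A9, and its companion had 0.650 of A9 in A1. In comp17350_c0 the member comp17350_c0_seq1 had 5.05 RPKM in A1, 14.4 RPKM in A3 and 10.8 RPKM in A9, and its companion had 0.789 of A9 in A1. In both components the companion was lower in A1 than in A9 and A3, but by less than 2-fold. In comp35022_c0 the member comp35022_c0_seq2 had 21.5 RPKM in A1, 43.8 RPKM in A3 and 43.0 RPKM in A9. The more abundant comp35022_c0_seq1 had 41.4 RPKM in A1, 76.7 RPKM in A3 and 79.2 RPKM in A9, and comp35022_c0_seq3 had 15.4, 29.2 and 27.7 RPKM. With A1/A9 ratios of 0.523 and 0.555, these 2 transcripts missed the limit that the member met at 0.499, and the 3 behaved much alike. In comp36045_c1 the member comp36045_c1_seq1 had 6.56 RPKM in A1, 13.2 RPKM in A3 and 13.2 RPKM in A9. The sum of its other transcripts was 9.95 RPKM in A1, 14.3 RPKM in A3 and 9.5 RPKM in A9. That sum was 1.05 times as high in A1 as in A9, but 0.696 of A3.

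Several members lay close to the limits. Just inside the limit on A1/A9 were comp35022_c0_seq2 at 0.499, comp36045_c1_seq1 at 0.498 and comp44370_c1_seq2 at 0.487. Just outside were comp24472_c0_seq1 at 0.520, comp27358_c0_seq1 at 0.534 and comp45716_c0_seq2 at 0.544. For A1/A3 those inside were comp17108_c0_seq1, comp36045_c1_seq1 and comp27973_c0_seq1, at 0.497, 0.497 and 0.493. Values thus lay close on both sides of these limits. Outside the limit on A1/A3 were comp13793_c0_seq1 at 0.505, comp29229_c0_seq2 at 0.510 and comp20516_c0_seq1 at 0.514. By mean RPKM, comp17350_c0_seq1 at 10.1, comp22729_c0_seq2 at 10.54 and comp24560_c0_seq2 at 10.6 were just inside. Just outside the minimum mean were comp46840_c0_seq12 at 9.91, comp55020_c0_seq1 at 9.73 and comp36136_c0_seq6 at 9.30, and the second of these had 1.23 RPKM in A1, 12.5 RPKM in A3 and 15.5 RPKM in A9. By A3/A9, comp44149_c2_seq3 at 1.38, comp30998_c0_seq2 at 0.728 and comp17350_c0_seq1 at 1.34 were nearest to the limits from inside. From outside these were comp43448_c0_seq7, comp43448_c0_seq9 and comp29535_c1_seq2, the last at 0.662. The limits on A3/A9 thus had transcripts close to them on both sides as well.

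The rule was also applied to the component sums themselves, which gives the transcripts of a component a joint value. It was met by 23 of the 15320 components with a mean of at least 10 RPKM. Of these 23, 14 held a member and 9 did not, and 7 of the 21 components with a member did not meet it. In 7 of the 9 components without a member, no transcript reached a mean of 10 RPKM on its own. A pair of the 9 is described here and was chosen after its values were seen. The component comp37815_c0, with 11 transcripts, summed to 2.81 RPKM in A1, 40.1 RPKM in A3 and 50.7 RPKM in A9, while its most abundant transcript had a mean of 4.27 RPKM. The component comp44147_c0, with 10 transcripts, summed to 20.4 RPKM in A1, 69.9 RPKM in A3 and 69.5 RPKM in A9. In it 5 transcripts were listed at 0 in A1, among them comp44147_c0_seq1 with 13.8 RPKM in A3 and 13.3 RPKM in A9, and the other 5 had A1/A9 ratios from 0.754 to 1.04.

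The same thresholds with another line as the odd one, or with the odd line raised, gave patterns of different size. With A1 as the odd line, 25 transcripts were lowered and 30 raised. With A3 as the odd line there were 8 lowered and 8 raised, and with A9 as the odd line 84 lowered and 55 raised. The 6 patterns share the 3 libraries, so these counts describe the libraries and were not tested. A difference of at least 8-fold was found in 8 of the 25 transcripts lowered only in A1, in 3 of the 84 lowered only in A9 and in none of the other 4 patterns. At a minimum mean of 5 RPKM, which was looked at after the values were seen, 25 of 122 transcripts lowered only in A1 reached 8-fold, from 17 components, and 8 were listed at 0 in A1. At that minimum, 7 of 52 transcripts lowered only in A3 and 10 of 209 lowered only in A9 reached 8-fold, and 4 and 1 were listed at 0 in the odd line. Raised transcripts reached 8-fold in 2 of 100 cases for A1, 0 of 30 for A3 and 1 of 127 for A9. A lowered transcript reaches the minimum mean through the 2 libraries where it is high, a raised one mainly through 1. Counts of lowered and raised transcripts at 8-fold are therefore not on equal terms.

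**Figure D5:**
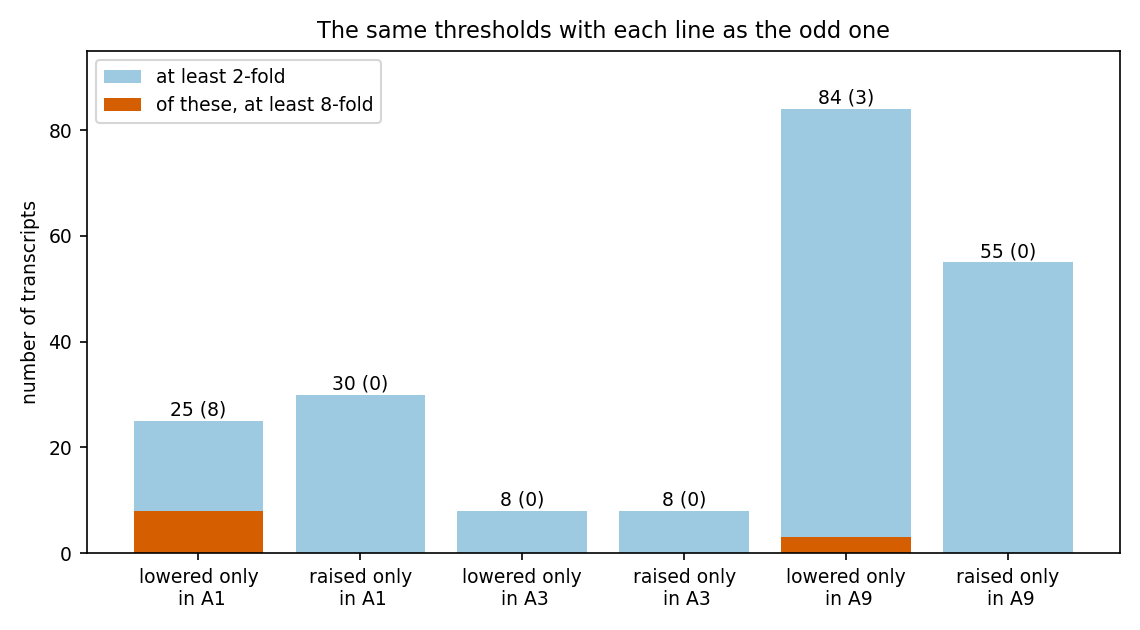
Number of transcripts (vertical axis) that met the thresholds with A1, A3 or A9 as the odd line, lowered or raised (horizontal axis), at a mean of at least 10 RPKM. The orange part and the number in parentheses are the transcripts with a difference of at least 8-fold, 8 of 25 for those lowered only in A1 and 3 of 84 for those lowered only in A9.

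The component sum met the ratios for 68% of the transcripts lowered only in A1. It did so for 56.7% of those raised only in A1, 87.5% and 50% of those lowered and raised only in A3, and 66.7% and 76.4% of those lowered and raised only in A9. Counting only members of components with 2 or more transcripts, the share was 50% for those lowered only in A1, 23.5% for those raised only in A1, 37.8% for those lowered only in A9 and 53.6% for those raised only in A9. The A3 patterns had 2 and 4 such transcripts. The 50% stands for 8 of 16, and 4 of these 8 were the transcripts of comp26679_c0, whose sum had to meet the ratios. Components made up of members alone were not set apart in any pattern.

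None of the 25 transcripts is among the 512 named in the study's supplement, which lists predicted miRNA targets, and none shares a component with any of these. In the sources used here a function was given only for transcripts among these, and not for all of them. Of the 512, 121 had a mean of at least 10 RPKM, which is 0.801% of all transcripts at that level, so that none among 25 says nothing about the members. The 121 had a median A1/A9 of 0.928, and 2 of them, or 1.65%, were at most 0.5 of A9 in A1, beside 1.4% of all transcripts at that level. These were the photosystem II 22kDa protein, which dissipates excess light energy, at 28.1 RPKM in A1, 32.9 RPKM in A3 and 63.1 RPKM in A9, and cyclophilin B, a protein-folding isomerase, at 13.5, 13.7 and 27.6 RPKM. In both A3 was near A1, so neither was lowered only in the dwarf mutant. A function was given for 144 of the 512, and 63 of these reached 10 RPKM, with a median A1/A9 of 0.957.

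Processes tied to stem growth were represented among these targets by few transcripts. Of the lists made from the function text, auxin had 1 transcript of at least 10 RPKM, the auxin receptor transport inhibitor response 1, at 0.672 of A9 in A1. Abscisic acid and carotenoids had 2, from 0.620 to 0.831, and brassinosteroid and cytokinin had 1, brassinosteroid resistant 1/2, a transcription factor of brassinosteroid signalling, at 0.828. None of these 4 met the ratio of the rule. Cell wall enzymes had 3, from 0.636 for a beta-glucosidase to 1.45, and cell cycle and DNA replication had 3, from 0.613 for tubulin beta to 1.45. Transcription factors had 3, from 0.821 to 1.10, small RNA machinery 2, from 0.859 to 0.945, and ribosome and translation 6, from 0.796 to 1.42. The list for light and clock had the photosystem II 22kDa protein alone, at 0.445, the only list member at most 0.5 of A9 in A1.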

How the data were processed

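Per the study's methods, paired reads of the libraries were trimmed of adaptors, filtered for quality and assembled jointly with Trinity. For each transcript and line the authors deposited an RPKM value to 2 decimals. The read mapper and the counting of reads that match several transcripts are not given in the sources used here. Small RNA libraries are not analysed here. The 3 RPKM tables were joined by transcript name (sums of 798674 to 805778, and 4963 to 5712 transcripts at 0 per library), ratios were taken without a pseudocount, and RPKM was summed per component. Depth was inferred at 13500000 to 15100000 reads per library from whole multiples among low values (within 0.1, in 89.7% to 93.8% of the 65 to 70 values low enough to tell). The step of RPKM times length was sought only between 50 and 100, so the possible depths were bounded beforehand. Members and lists were chosen with earlier results of these data known. Transcripts were to be named by lowest A1/A9, highest mean, component behaviour and closeness to a limit, and all 25 members are named. Alternatives were other scalings, pseudocounts, minimum means, ratios and component sums. Scripts were tested on simulated data. Python 3.11.15, numpy 2.4.6, pandas 2.3.3 and matplotlib 3.10.9 were used.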

Additional observations from a re-analysis of the deposited data

How the results depend on the processing

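The number of transcripts lowered only in A1 depended mainly on the minimum mean and on the ratios. It went from 25 to 122 at a mean of at least 5 RPKM, to 9 at 20 RPKM and to 3978 with no minimum, to 9 and 8 with ratios of at most 0.4 and 0.25, and to 9 with only transcripts alone in their component. Scaling by the median ratio gave 22, of which 21 were members; comp17108_c0_seq1, comp27973_c0_seq1, comp35022_c0_seq2 and comp36045_c1_seq1 were lost. Other scalings gave 25 and 27, pseudocounts of 0.1 and 1 gave 23 and 18, and narrower and wider limits on A3/A9 gave 20 and 31. The number of members whose component sum met the ratios was 8 in place of 17 with only components of at least 2 transcripts. Of these 8, 4 were those of comp26679_c0, whose sum had to meet the ratios. By component sums, 13 rather than 8 were lowered only in A3. The log2 ratio of A1 over A9 turned from negative to 0.13 for comp43309_c0_seq17 and comp43309_c0_seq18 when their component was summed. The median log2 ratio of the members was -1.25 to -1.40 under pseudocounts and scalings and -1.09 by component sums. Values just above 0 in A1 rest on few reads, and shared reads within a component were not resolved. No paired analysis was possible because each line had a single library.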
